A study of Mus musculus with 27 samples.

Results

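The Fos and Jun families of AP-1 transcription factors, together with Atf3, Egr1 and Maff, were followed in the RNA of hepatic stellate cells (HSCs), perisinusoidal cells that store retinoid in lipid droplets, over 27 bulk libraries. The set held 10 genes of the 53379 in the count table, taken by name and not by their values: Fos, Fosb, Fosl1, Fosl2, Jun, Junb, Jund, Atf3, Egr1 and Maff. All 10 passed the filter on low counts, which kept 18758 genes. HSCs came from male Balb/c mice. Liver injury was caused with carbon tetrachloride (CCl4), which is toxic to hepatocytes and was injected into the peritoneum in mineral oil at 0.5 µL per g of body weight. Healthy mice of 10 to 12 weeks received no injection (n = 4), so a group given the oil alone was not part of the comparison. Acute groups were 10 to 12 weeks old and had 1 injection. Their cells were taken 24 h (3 libraries), 72 h (4 libraries) or 7 d (4 libraries) later. Chronic groups were 8 to 10 weeks old at the start of a course of 8 injections, given semi-weekly over 4 weeks. They were collected 24 h, 72 h or 14 d after the last one (n = 4 each).

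AP-1 is a family of dimers that bind DNA through a basic region and pair through a leucine zipper. Fos proteins pair with Jun proteins but not with each other, Jun proteins can also pair among themselves, and the dimers bind the TPA response element. Atf3 is a stress-induced partner of Jun proteins, Maff is a small Maf protein that lacks a transactivation domain, and Egr1 is a zinc finger factor switched on by the same growth factor and kinase signals. Such immediate early genes are transcribed within minutes of a stimulus without new protein synthesis. In HSCs, AP-1 is known as a regulator of matrix-degrading enzymes, cytokines and Timp1. The same genes are also known to respond to the digestion and sorting of tissue. Every library here, healthy ones included, came from cells that had been perfused and sorted on retinoid fluorescence under ultraviolet light. Levels present in the animal and levels reached during isolation cannot be told apart. In bulk RNA, fewer cells of a type and less RNA per cell cannot be told apart either.

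Promoters of the members were read from RefSeq windows on the build of the count table (GRCm38.p6), which covered 8 of the 10 genes (not Fosl1 or Egr1) with 10 start sites. Matches were searched on both strands in the 250 bases before each start, and shares are those of 32851 mouse promoter windows of that length. The search covered the cAMP response element (TGACGTCA, 1.55%), its core (TGACGT, 6.47%, which lies inside the whole element) and the TPA response element (TGAGTCA, 4.46%). It also covered the site known from the Jun promoter (TGACATCA, 2.93%) and the CArG box bound by serum response factor (1.47%). The Jun-type site was added to the search after the sequences had been seen. The 4 stretches of 130 bases shown here end at the base before a start and have the bases matched to these sites in capitals. They were chosen because Fos and Jun were among the most abundant members and Maff was one of the 2 that rose after injury.
Fos, chr12:85473760-85473889, plus strand: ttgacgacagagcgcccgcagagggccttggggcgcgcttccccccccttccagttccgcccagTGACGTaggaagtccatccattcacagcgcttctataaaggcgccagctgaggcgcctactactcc
Jun, chr4:95052223-95052352, minus strand: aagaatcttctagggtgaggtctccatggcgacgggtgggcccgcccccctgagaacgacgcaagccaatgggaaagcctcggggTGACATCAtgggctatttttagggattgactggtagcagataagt
Maff, middle start, chr15:79347390-79347519, plus strand: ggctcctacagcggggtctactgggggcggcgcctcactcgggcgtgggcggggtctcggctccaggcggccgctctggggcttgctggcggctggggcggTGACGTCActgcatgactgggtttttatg
Maff, downstream start, chr15:79348272-79348401, plus strand: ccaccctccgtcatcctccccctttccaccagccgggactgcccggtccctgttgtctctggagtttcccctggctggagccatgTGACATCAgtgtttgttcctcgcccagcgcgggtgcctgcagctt
The core in Fos began 66 bases before the start and a TATAAA box 33 bases before it. TATAAA was searched for as well, was found in 12.4% of the promoter windows and is left in lower case above. Jun and the downstream start of Maff each held TGACATCA at 45 bases before the start, and the middle start of Maff held the whole cAMP response element at 29 bases. In Atf3 the core, read on the other strand as ACGTCA, began 8 bases before the start. None of the searched windows of Fosb, Fosl2, Junb and Jund, nor the upstream start of Maff, held a match to these 4 sites or the CArG box. These are matches of letters, and no binding was measured. Positions are counted back from the annotated start, whose first upstream base is base 1.

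Total counts ran from 6.31 M to 13.1 M per library, where M stands for 1e6. Of these, 8 libraries lay at 7.58 M or below and the other 19 at 10.8 M or above. The shallow ones were replicates 1 and 2 in both early chronic groups and every chronic 14 d library. All chronic 14 d libraries were thus shallow, while both earlier chronic groups held libraries of either depth, and each comparison was also fitted with depth class as a term. The summed level of 10 stellate cell markers (Lrat, Reln, Des, Pdgfrb and others) was 29039 to 48469 CPM (counts scaled to a common library size) in healthy libraries and at its lowest 15409.7 CPM, in a chronic 24 h library. Markers of the labelled cell type were thus abundant in all 27 libraries. Per the study, each repeat was an individual experiment.

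The 10 genes together took between 1.85% and 4.36% of all counts of a library, with a median of 3.1%. Healthy libraries held the largest mean share, 3.89% ± 0.562 (SD, n = 4), and acute 7 d libraries the smallest, 2.42% ± 0.53 (SD, n = 4). The share was 3.38% ± 0.724 in acute 24 h (n = 3) and 3% ± 0.236 in acute 72 h libraries (n = 4). After the chronic course it was 3.09% ± 0.0509 at 24 h, 3.36% ± 0.25 at 72 h and 3.25% ± 0.412 at 14 d (SD, n = 4 each). No injured group had a mean share above that of the healthy libraries.

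**Figure D1:**
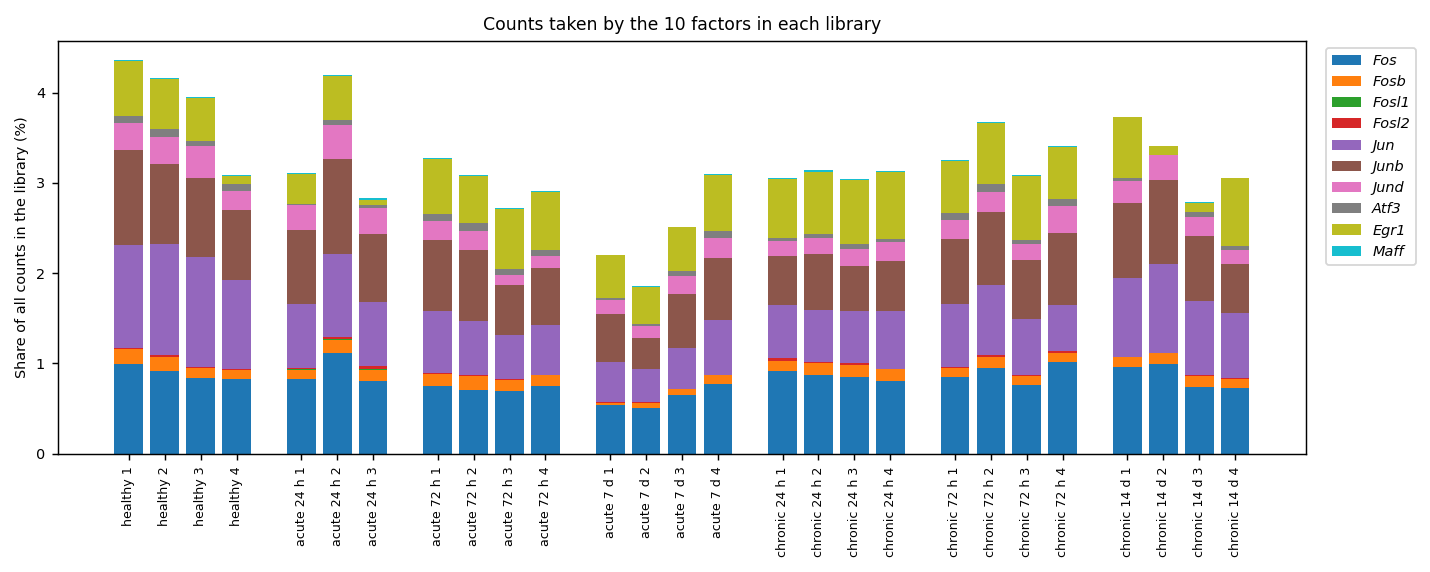
Share of all counts in each of the 27 libraries (vertical axis, percent; one bar per library, named by group and replicate) taken by each of the 10 factors (stacked colours). The totals run from 1.85% in an acute 7 d library to 4.36% in a healthy one, and the Egr1 segment is thin in healthy 4, acute 24 h 3 and chronic 14 d 2 and 3.

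Per kilobase of exon, which allows levels to be set between genes, Fos was the most abundant member with a median of 3637 CPM per kb over the 27 libraries, followed by Junb (3016), Jun (2076), Egr1 (1315) and Jund (1247). Among all 53379 genes of a library, Fos ranked between place 5 and 17 on this scale, Junb between 5 and 22, and Jun between 7 and 29. These 3 genes were thus among the most abundant transcripts of HSCs in every group, without injury as well. Atf3 (243 CPM per kb), Fosb (186), Maff (39.3) and Fosl2 (10.1) followed, and Fosl1 was last at 1.07 CPM per kb.

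**Figure D2:**
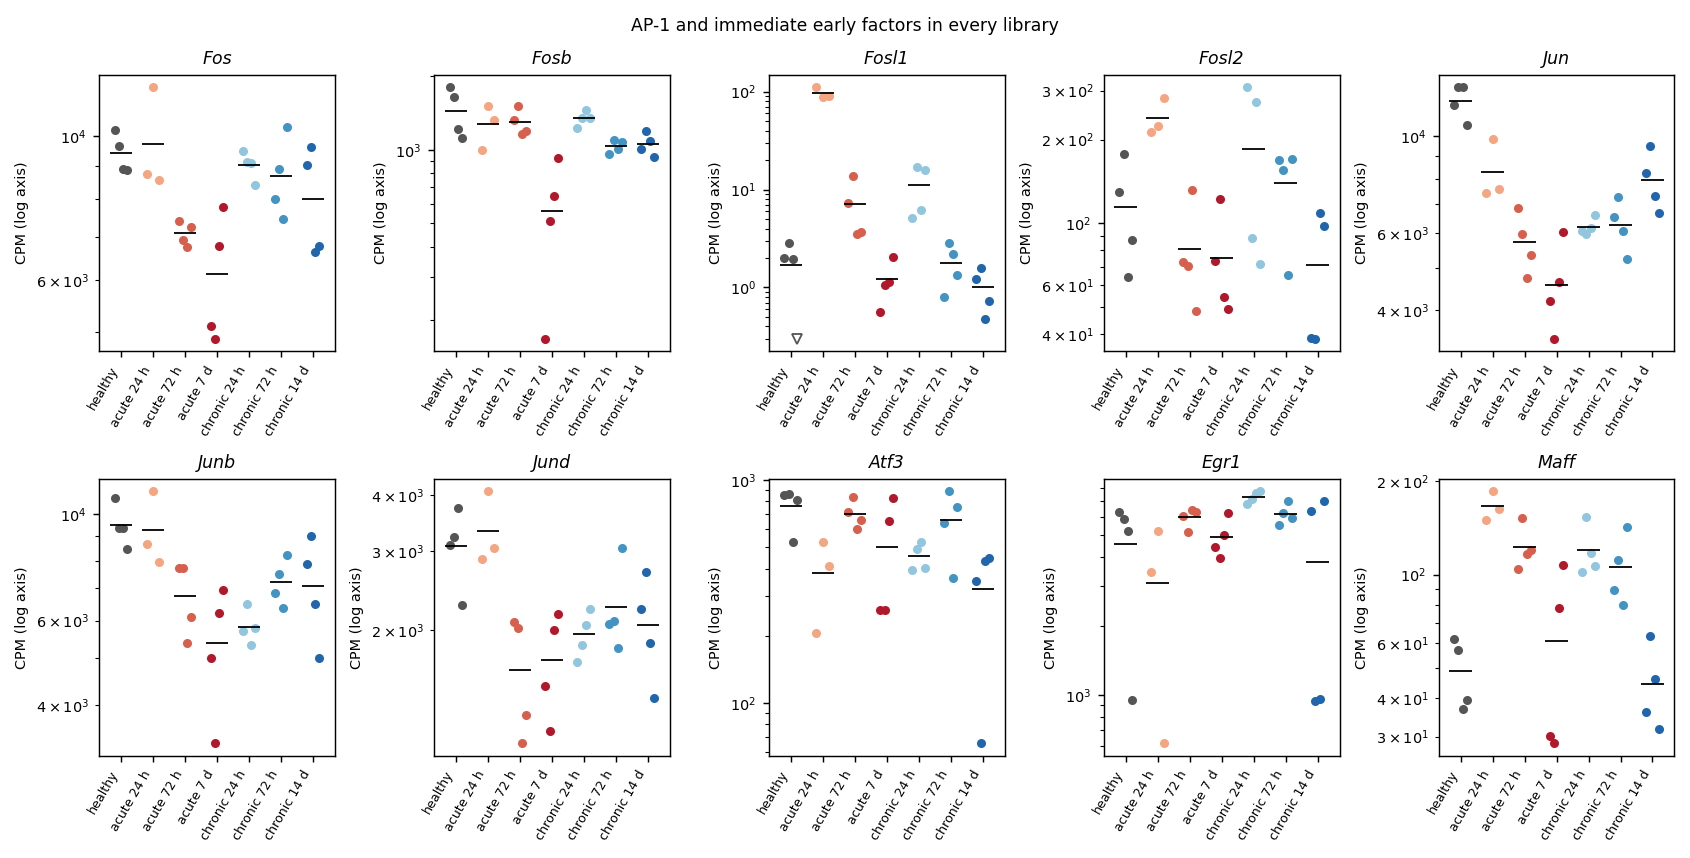
Level of each factor in every library (vertical axis, scaled CPM on a log axis that differs between panels; one point per library, 3 in acute 24 h and 4 in each other group; black line, group mean). The healthy library without a Fosl1 count is drawn as an open triangle at the foot of its panel. Fosl1 stands at 87.2 to 111 CPM in acute 24 h libraries and at or below 2.83 CPM in healthy ones, while the points of Fos and Fosb in those 2 groups overlap.

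Differences between groups were tested with the quasi-likelihood test of edgeR on the counts of all 27 libraries, with p-values adjusted by the Benjamini-Hochberg method over all 18758 genes. A gene was called, and is said to have risen or fallen, at an adjusted p below 0.05 with a change above 2-fold. Against healthy libraries 2 members were higher and 0 lower at acute 24 h, where 9.41% of all genes tested were called higher and 12.5% lower. At acute 72 h, 2 were higher and 1 lower (all genes 8.23% and 4.33%), at acute 7 d 0 and 2 (9.23% and 5.64%), and at chronic 24 h 2 and 0 (11.2% and 8.11%). At chronic 72 h, 1 member was higher and 0 lower (all genes 7.88% and 4.2%), and at chronic 14 d 0 were called by edgeR (4.55% and 1.17%). At an unadjusted p below 0.05, changes of any size were counted for 5, 6, 5, 5, 2 and 4 members in these 6 comparisons in the same order, and DESeq2 called 2, 3, 2, 2, 1 and 1. In a set of 10, a single call already matches most of these shares, so the counts are not read as a result about the family. All 6 comparisons share the same 4 healthy libraries.

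**Figure D3:**
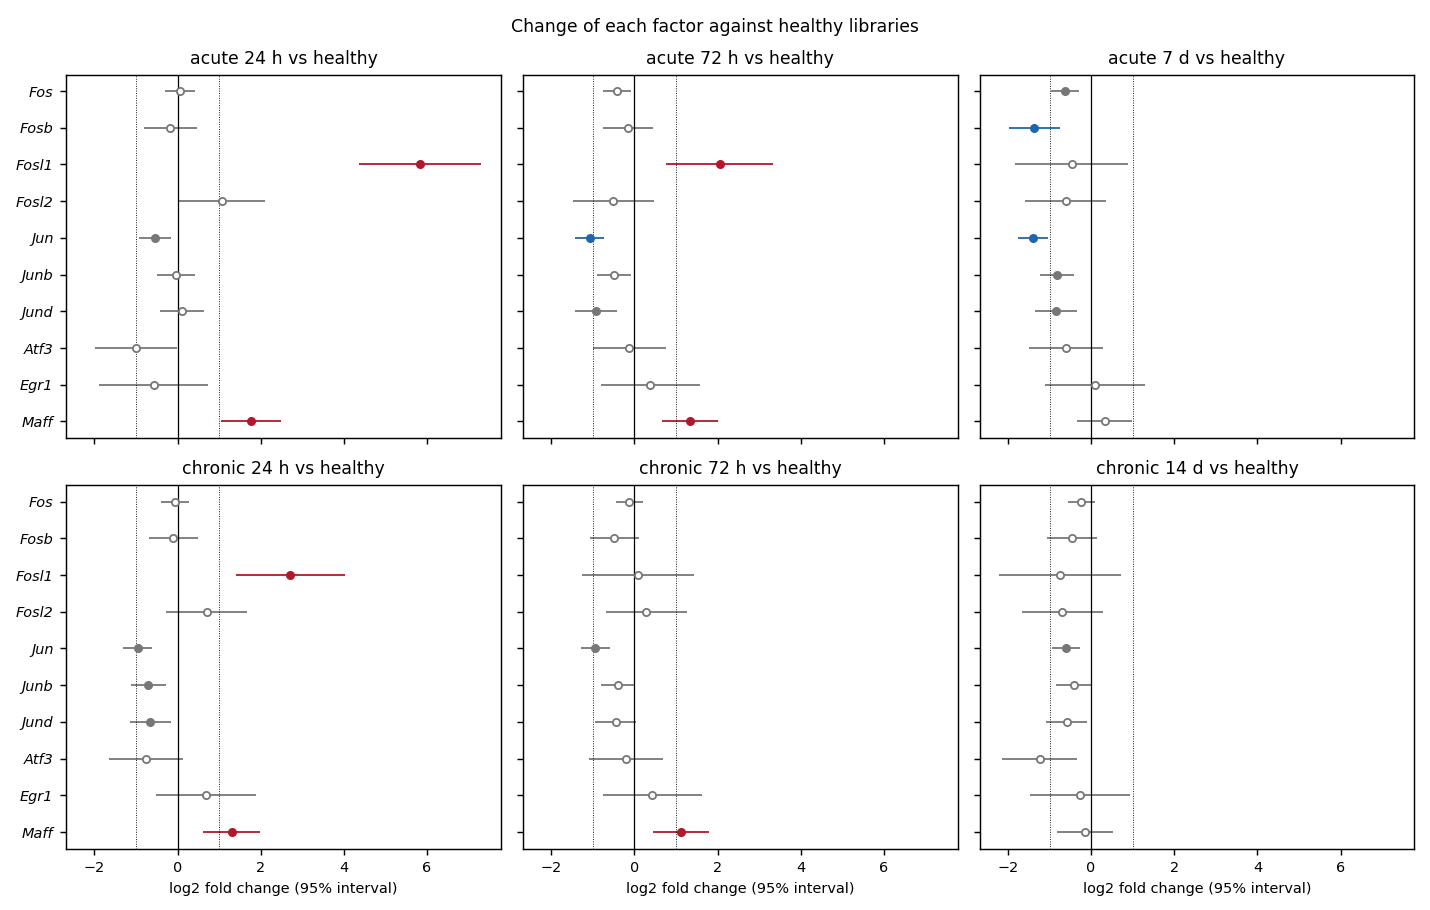
Log2 fold change of each factor against healthy libraries in the 6 injured groups (horizontal axis; points with 95% intervals from edgeR; filled, adjusted p below 0.05; red or blue, also above 2-fold; dotted lines, 2-fold). Fosl1 at acute 24 h lies farthest from 0, at 5.83, and Jun lies left of 0 in all 6 panels, called in 2 of them.

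Fosl1 (ENSMUSG00000024912, chromosome 19, 5447547 to 5455946, plus strand, GRCm38), also known as Fra-1 and a Fos protein without the transactivation domain of Fos, had the largest difference of the set. Healthy libraries held 1.99, 2.83, 1.94 and 0 CPM, from 0 to 29 counts, and acute 24 h libraries 111, 87.2 and 90.1 CPM, from 1004 to 1249 counts. Each of the 3 acute 24 h libraries was far above each healthy one, and the log2 fold change was 5.83 ± 0.71 (SE), adjusted p = 1.81e-06. After 72 h the acute libraries held 7.26, 13.7, 3.5 and 3.72 CPM, still above every healthy library (2.06 ± 0.62 (SE), adjusted p = 0.0198), and after 7 d 0.566, 1.07, 1.13 and 2.07 CPM, which overlapped with healthy libraries. Without replicate 2 of acute 72 h, the highest of its group, the 72 h value was 1.51, adjusted p = 0.098, which ended the call. A fit limited to these 2 groups ended it too (2.06, adjusted p = 0.143).

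In the chronic course Fosl1 stood at 5.1, 17, 6.23 and 15.9 CPM at 24 h, again without overlap with healthy libraries (2.71 ± 0.63 (SE), adjusted p = 0.002). It stood at 0.8, 2.86, 2.18 and 1.33 CPM at 72 h and 1.22, 1.58, 0.481 and 0.735 CPM at 14 d, both overlapping with healthy libraries. The chronic 24 h level lay far below the acute 24 h level, with no overlap between the libraries and a log2 difference of -3.12 ± 0.62 (SE), adjusted p = 0.000907. The order of the group means was acute 24 h, chronic 24 h, acute 72 h, chronic 72 h, healthy, acute 7 d and chronic 14 d, where chronic 24 h overlapped with acute 72 h and the last 4 groups overlapped with each other. Fosl1 shares 1163 exon bases with Ccdc85b on the other strand. Whether the counting used strand is not stated. Ccdc85b stood at 62 ± 5.58 CPM in healthy (SD, n = 4), 139.7 ± 29.8 CPM in acute 24 h (SD, n = 3) and 46.7 ± 9.52 CPM in chronic 24 h libraries (SD, n = 4). It rose with Fosl1 at acute 24 h (log2 fold change 1.17, adjusted p = 0.000288) but was not called at chronic 24 h (-0.41, adjusted p = 0.149). Like Fosl1, it was lower at chronic than at acute 24 h (-1.58, adjusted p = 2.65e-05). It also fell from acute 24 h to 72 h (-1.29, adjusted p = 0.000197). From chronic 24 h to 72 h or 14 d, and between chronic and acute 72 h, Ccdc85b was not called. How the reads of the 2 genes were divided was not tested.

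Fosl2 (ENSMUSG00000029135, chromosome 5, 32135801 to 32157842, plus strand), or Fra-2, the other Fos protein without that domain, varied widely inside groups. Healthy libraries held 129.9, 177, 64 and 86.9 CPM and acute 24 h libraries 212, 224 and 281 CPM. The 2 groups did not overlap, but the difference missed the threshold (1.06 ± 0.50 (SE), adjusted p = 0.109) unless the fit was limited to these 2 groups (1.13, adjusted p = 0.0332). At chronic 24 h, replicates 1 and 3 held 309 and 274 CPM and replicates 2 and 4 only 88.8 and 71.7 CPM. Acute 72 h libraries held 48.4 to 132 CPM, acute 7 d libraries 49.4 to 122 CPM, chronic 72 h libraries 65.3 to 170.4 CPM and chronic 14 d libraries 38.6 to 109 CPM. From 24 h to 72 h after a single injection Fosl2 fell (-1.56 ± 0.51 (SE), adjusted p = 0.0272). Leaving out any of 5 of the 7 libraries ended this call: without acute 24 h replicate 2 or 3, or acute 72 h replicate 1, 2 or 4, the adjusted p lay between 0.0541 and 0.0839. The fall from chronic 24 h to chronic 14 d (-1.39 ± 0.48 (SE), adjusted p = 0.0387) was likewise lost without chronic 24 h replicate 1 (-1.03, adjusted p = 0.136) or 3 (-1.14, adjusted p = 0.123). It was lost as well without chronic 14 d replicate 1 (-1.19, adjusted p = 0.112) or 2 (-1.15, adjusted p = 0.127). It was also lost with the replicate numbers as a block (-1.29, adjusted p = 0.0749), with library size as the only scaling (-1.20, adjusted p = 0.0775) and without a filter on low counts (-1.36, adjusted p = 0.0923). The same held with only the groups compared (-1.29, adjusted p = 0.14) and with depth class as a term (-1.55, adjusted p = 0.0501).

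Fos (ENSMUSG00000021250, chromosome 12, 85473890 to 85477273, plus strand), the namesake of the family and a strong activator as a dimer with Jun, differed little from healthy libraries at 24 h. No library was taken sooner after an injection, so a response in the first minutes or hours was not sampled, for Fos or any other member. Healthy libraries held 10209, 9639.7, 8883 and 8864 CPM, acute 24 h libraries 8747, 11888 and 8554 CPM and chronic 24 h libraries 9478, 9114, 9075 and 8390.2 CPM. The 3 groups overlapped, with log2 fold changes against healthy of 0.050 (95% interval -0.31 to 0.41) at acute 24 h and -0.060 (-0.40 to 0.27) at chronic 24 h, so that a 2-fold difference lay outside both intervals. Acute 7 d libraries held 5104, 4875, 6773 and 7759.9 CPM, all 4 below every healthy library. The difference there was -0.62 ± 0.16 (SE), adjusted p = 0.00777, below 2-fold. The remaining groups held 6747 to 7395 CPM (acute 72 h), 7453 to 10314 CPM (chronic 72 h) and 6625 to 9609 CPM (chronic 14 d).

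Fosb (ENSMUSG00000003545, chromosome 7, 19302696 to 19310051, minus strand), a close relative of Fos, fell at acute 7 d. Healthy libraries held 1808, 1642, 1215 and 1113 CPM and acute 7 d libraries 167, 509.5, 647 and 924 CPM, without overlap and with replicate 1 of acute 7 d far below the rest (-1.36 ± 0.29 (SE), adjusted p = 0.00148). A fit limited to these 2 groups gave -1.38, adjusted p = 0.061, which ended the call. In the other 5 injured groups the single libraries lay between 929.9 and 1519 CPM, and none of the differences from healthy passed an adjusted p of 0.05.

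Jun (ENSMUSG00000052684, chromosome 4, 95049034 to 95052222, minus strand), one of the Jun proteins with which Fos proteins pair to bind DNA, was highest in healthy libraries and below them in every injured group. Healthy libraries held 11772, 12962, 12936 and 10594 CPM. Acute libraries held 7409, 9872 and 7581 CPM at 24 h, 6853, 5992, 4737 and 5340.4 CPM at 72 h and 4198, 3445, 4656 and 6031 CPM at 7 d. Chronic libraries held 6087, 5980.3, 6182 and 6621 CPM at 24 h, 6529, 7284, 6076 and 5232 CPM at 72 h and 8233, 9528, 7303 and 6689.9 CPM at 14 d. None of the 23 injured libraries reached the lowest healthy library.

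Jun fell at acute 72 h (-1.07 ± 0.17 (SE), adjusted p = 6.85e-05) and at acute 7 d (-1.40 ± 0.17 (SE), adjusted p = 3.22e-06). At acute 24 h (-0.54 ± 0.18 (SE), adjusted p = 0.0238) and chronic 24 h (-0.96 ± 0.17 (SE), adjusted p = 0.000125), the adjusted p passed 0.05 but the change stayed below 2-fold. The same held at chronic 72 h (-0.94 ± 0.17 (SE), adjusted p = 0.000295) and chronic 14 d (-0.60 ± 0.17 (SE), adjusted p = 0.0251). By the adjusted p alone, the share of all genes that were lower ran from 3.49% at chronic 14 d and 8.81% at acute 72 h to 18.1% at acute 24 h. It was 10.6% at acute 7 d, 14% at chronic 24 h and 9% at chronic 72 h. Several of these values sat next to the 2-fold line. With library size as the only scaling the acute 72 h value was -0.97, adjusted p = 0.000145, and without healthy replicate 4 the chronic 24 h value was -1.01, adjusted p = 0.000163. The order of the means was healthy, acute 24 h, chronic 14 d, chronic 72 h, chronic 24 h, acute 72 h and acute 7 d, and each group after healthy overlapped with the next.

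Junb (ENSMUSG00000052837, chromosome 8, 84974484 to 84978718, minus strand), a Jun protein known as a weaker activator than Jun, had no called difference from healthy libraries by edgeR. It held 10838, 9341, 9362 and 8442 CPM in healthy and 8677, 11160.1 and 7936 CPM in acute 24 h libraries, which overlapped (-0.037, 95% interval -0.49 to 0.41). Chronic 24 h libraries held 5693, 6483, 5325 and 5779.9 CPM, all below every healthy library (-0.71 ± 0.20 (SE), adjusted p = 0.00969, below 2-fold). Acute 7 d libraries held 5020.1, 3331, 6230.1 and 6941 CPM, also without overlap (-0.82 ± 0.20 (SE), adjusted p = 0.00474, below 2-fold). Chronic 24 h libraries also lay below all 3 acute 24 h libraries, by less than 2-fold (-0.67 ± 0.22 (SE), adjusted p = 0.0279). Junb overlaps with Prdx2 on the other strand, which had 19037 counts over all libraries against 2056406 for Junb.

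Jund (ENSMUSG00000071076, chromosome 8, 70698949 to 70700616, plus strand), the Jun protein usually described as present without stimulation, held 3099, 3222, 3738 and 2272 CPM in healthy and 2874, 4073 and 3045 CPM in acute 24 h libraries, which overlapped. At acute 72 h the level was 2079.6, 2022, 1118 and 1290.4 CPM, all below every healthy library (-0.92 ± 0.24 (SE), adjusted p = 0.00754, below 2-fold). This value passed 2-fold without healthy replicate 4 (-1.04, adjusted p = 0.00443), acute 72 h replicate 1 (-1.06, adjusted p = 0.00519) or acute 72 h replicate 2 (-1.04, adjusted p = 0.00722). Acute 7 d libraries held 1191 to 2168 CPM (-0.85 ± 0.24 (SE), adjusted p = 0.0127) and chronic 24 h libraries 1694 to 2221 CPM (-0.66 ± 0.24 (SE), adjusted p = 0.0394), both lower by less than 2-fold. Chronic 72 h libraries held 2058, 2091, 1824 and 3039 CPM and chronic 14 d libraries 2226, 2693, 1864 and 1412 CPM, both overlapping with healthy libraries. After the single injection Jund fell between 24 h and 72 h (-1.03 ± 0.26 (SE), adjusted p = 0.00455), while the same step in the chronic groups had a log2 difference of 0.21 (95% interval -0.29 to 0.70).

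Maff (ENSMUSG00000042622, chromosome 15, 79346621 to 79359076, plus strand), the small Maf protein, was the other member that rose. Healthy libraries held 62, 57, 36.7 and 39.5 CPM, acute 24 h libraries 150.2, 186 and 163 CPM and acute 72 h libraries 104, 152, 116 and 119.9 CPM. Neither acute group overlapped with healthy libraries, and Maff rose at 24 h (1.77 ± 0.35 (SE), adjusted p = 0.000368) and at 72 h (1.33 ± 0.33 (SE), adjusted p = 0.00464). At acute 7 d the libraries split, with 30.1 and 28.6 CPM in replicates 1 and 2 and 77.9 and 108 CPM in replicates 3 and 4. The mean did not differ from healthy past the threshold (0.32 ± 0.32 (SE), adjusted p = 0.516). The same 2 libraries were the lowest of their group for Fos, Fosb, Junb, Jund, Jun and Atf3 as well.

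In the chronic course Maff stood at 102, 154, 117 and 107 CPM at 24 h (1.30 ± 0.33 (SE), adjusted p = 0.0038) and 89.2, 111, 80.1 and 142 CPM at 72 h (1.11 ± 0.33 (SE), adjusted p = 0.0171), both above every healthy library. At 14 d it stood at 35.9, 63.3, 46.2 and 31.7 CPM, around the healthy range of 36.7 to 62 CPM, and it fell between chronic 24 h and 14 d (-1.44 ± 0.33 (SE), adjusted p = 0.00269). The chronic 72 h call was lost without healthy replicate 3 (1.00, adjusted p = 0.0598), without chronic 72 h replicate 4 (0.94, adjusted p = 0.0702) and in the libraries above 9 M alone (1.22, adjusted p = 0.0579). Unlike Fosl1, Maff did not differ between chronic and acute libraries past the threshold at 24 h (-0.47, 95% interval -1.18 to 0.24) or at 72 h (-0.22, -0.88 to 0.44). Whether the chronic-to-acute difference at 24 h was unequal for the 2 genes was not tested.

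Atf3 (ENSMUSG00000026628, chromosome 1, 191170296 to 191218039, minus strand), induced by many stresses and a repressor as a homodimer, had its highest group mean in healthy libraries. These held 857, 866, 524 and 809 CPM, and acute 24 h libraries 205, 524 and 412 CPM, with the highest acute 24 h library level with the lowest healthy one (-1.01 ± 0.48 (SE), adjusted p = 0.109). Chronic 14 d libraries held 353, 66.1, 433 and 445 CPM, all below every healthy library, with replicate 2 far under the others. Its difference missed the adjusted p in edgeR (-1.24 ± 0.44 (SE), adjusted p = 0.0801) and passed it in DESeq2 (-1.20, adjusted p = 0.0439). The other groups held 602 to 837 CPM (acute 72 h), 260.3 to 828 CPM (acute 7 d), 396 to 526 CPM (chronic 24 h) and 362 to 887 CPM (chronic 72 h). No group mean of Atf3 after injury lay above the healthy mean of 764 ± 162 CPM (SD, n = 4).

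Egr1 was at a high level in most libraries and far lower in 4 of them. Healthy libraries held 6284, 5870.4, 5169 and 954 CPM, acute 24 h libraries 3423, 5168 and 617 CPM and chronic 14 d libraries 6318, 939, 959 and 6989.6 CPM. Healthy replicate 4, acute 24 h replicate 3 and chronic 14 d replicates 2 and 3 thus stood apart. The 4 libraries belong to 3 groups and to both depth classes. The other groups held 5133 to 6439 CPM (acute 72 h), 3950.2 to 6222 CPM (acute 7 d), 6835 to 7731 CPM (chronic 24 h) and 5500.1 to 7040.4 CPM (chronic 72 h). With these low libraries the intervals were wide, and no comparison of Egr1 with healthy passed the threshold: -0.57 (95% interval -1.88 to 0.73) at acute 24 h and 0.68 (-0.52 to 1.89) at chronic 24 h. Without acute 24 h replicate 2, its highest library, the mean of that group moved from 3069 to 2019.6 CPM. A library below 25% of the next lowest of its group was seen in 9.85% of the 548 genes whose mean log2 CPM reached 8. Of the 7 members of that abundance, Egr1 and Atf3 had one. This measure was chosen after these values had been seen.

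The comparisons that leave out healthy libraries gave few further calls. From acute 24 h to acute 72 h, 3 members fell (Fosl1, Fosl2 and Jund) and 0 rose, where 3.76% of all genes fell and 11.2% rose. Fosl1 had a log2 difference of -3.77 ± 0.64 (SE), adjusted p = 0.000149. From chronic 24 h to chronic 72 h, Fosl1 alone fell (-2.63 ± 0.63 (SE), adjusted p = 0.00604; all genes 3.65% lower and 4.72% higher). From chronic 24 h to chronic 14 d Fosl1 (-3.46 ± 0.69 (SE), adjusted p = 0.000809), Fosl2 and Maff fell (all genes 6.11% lower and 6.65% higher). The Fosl1 step from chronic 24 h to 72 h missed the threshold in the libraries above 9 M alone (-2.63, adjusted p = 0.0942). The Jund step after acute injury stayed below 2-fold without acute 24 h replicate 2 (-0.86, adjusted p = 0.0389), acute 72 h replicate 3 (-0.95, adjusted p = 0.0146) or acute 72 h replicate 4 (-0.99, adjusted p = 0.0141). The same held with library size as the only scaling (-0.92, adjusted p = 0.00683).

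Between the chronic and the acute course at the same time, Fosl1 was lower after the chronic course at 24 h and again at 72 h (-1.97 ± 0.63 (SE), adjusted p = 0.0355). It was the only member called in either comparison, in which 3.05% and 4.01% of all genes were lower and 10.9% and 5.11% higher. By the adjusted p alone, which Junb and Jund (-0.77 ± 0.26 (SE), adjusted p = 0.0334) passed at 24 h, 7.32% of all genes were lower there. The 72 h call was lost without acute 72 h replicate 1 (-1.96, adjusted p = 0.0603) or 2 (-1.43, adjusted p = 0.156). It was lost as well without chronic 72 h replicate 1 (-1.75, adjusted p = 0.102), 3 (-2.06, adjusted p = 0.0666) or 4 (-1.84, adjusted p = 0.0827). The course also differed in age at the start, number of injections and, for 2 of the 4 chronic libraries at each time, depth. The test of whether the step from 24 h to 72 h was unequal in the 2 courses called Jund, with a log2 difference of 1.24 ± 0.35 (SE), adjusted p = 0.0233, where 2.28% of all genes were called in this direction and 6.46% in the other. That call was lost without acute 24 h replicate 2 (1.07, adjusted p = 0.0887), without chronic 72 h replicate 4 (1.06, adjusted p = 0.0553) and in libraries above 9 M alone (1.30, adjusted p = 0.102). For Fosl1 the difference between the steps was 1.14 (95% interval -0.65 to 2.94), so its steps were not shown to differ.

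Across the 27 libraries the members fell into those that varied together and those that did not, as Pearson correlations of log2 CPM, given as a description since the points share libraries, sorts and depth. Junb and Jund had the highest of the 45 values (0.87), followed by Jun and Junb (0.82), Fos and Junb (0.77), Fos and Jund (0.76), Jun and Jund (0.76), Fosl1 and Maff (0.75), Fos and Fosb (0.71) and Fos and Jun (0.70). Spearman values for Junb with Jund and for Fosl1 with Maff were 0.90 and 0.81. As deviations from the group means, Fos and Junb had 0.83, Junb and Jund 0.85, and Maff had 0.75 with Fos, 0.74 with Junb and 0.73 with Fosb. Libraries of one group that were high in Fos thus tended to be high in Junb and Maff, while Maff and Jun had -0.088 across all libraries and 0.51 within groups. Fosl2 had values from -0.44 to 0.24 with the other 9 on this measure. The median over the 45 pairs was 0.26 across libraries and 0.32 within groups.

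**Figure D4:**
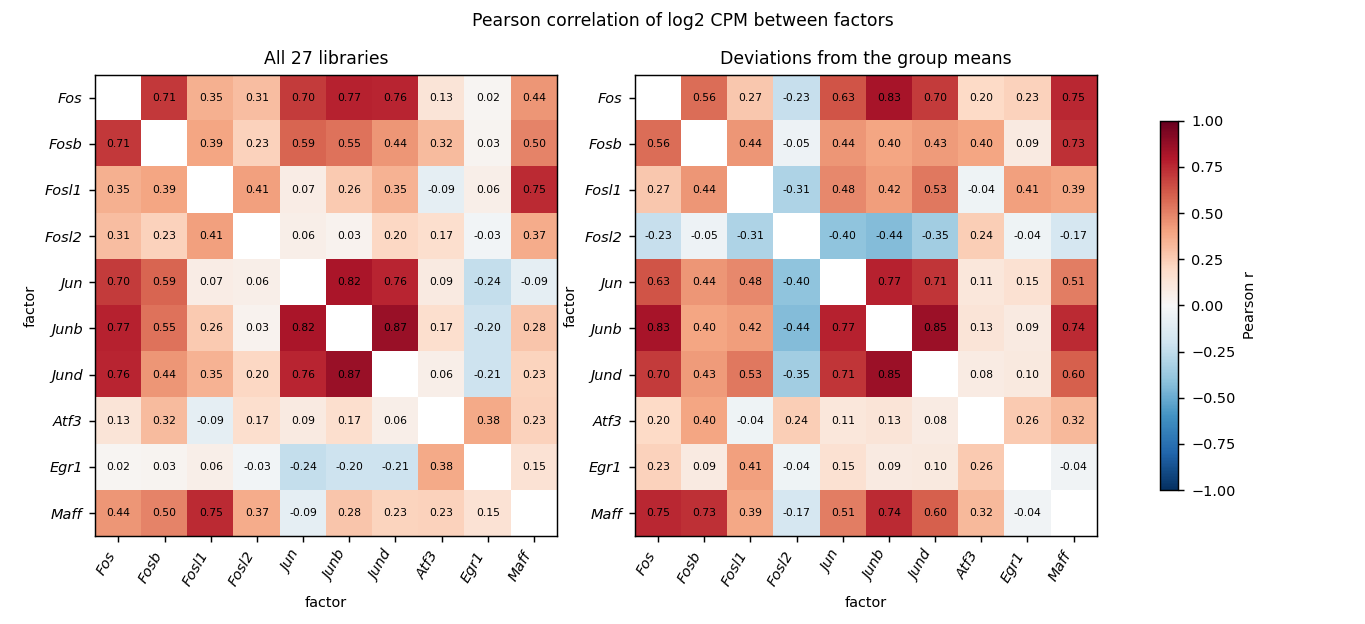
Pearson correlation of log2 CPM between each pair of factors (both axes, the 10 factors; colour and printed number, r) over all 27 libraries on the left and over deviations from the group means on the right. Fos, Jun, Junb and Jund form a block in both panels, with 0.87 for Junb and Jund on the left, and the row of Fosl2 turns from mostly positive on the left to mostly negative on the right.

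The pattern of each member over the 27 libraries was also compared with 10284 other genes whose mean log2 CPM reached 3. The closest by Pearson's r were Dusp1 (0.83, 0.73), Klf2 (0.82, 0.85) and Ecsit (0.81, 0.76) for Fos, where the values in brackets are r and Spearman's rho. For Fosb they were Dnttip2 (0.84, 0.37), Stk25 (0.84, 0.44) and Dusp1 (0.82, 0.57), with lower rank correlations. Fosl1 was closest to Nop2 (0.95, 0.90), Grwd1 (0.95, 0.87) and Fbl (0.93, 0.90), and Fosl2 to Zfp697 (0.79, 0.76), Ube2e1 (0.65, 0.61) and Smyd4 (0.65, 0.64). For Jun they were Tmem204 (0.89, 0.82), Fcna (0.87, 0.83) and Wdr66 (0.86, 0.89), among those for Junb were Marcksl1 (0.89, 0.91) and Ier2 (0.88, 0.86), and among those for Jund Znrf1 (0.86, 0.85) and B3gat3 (0.85, 0.81). Atf3 was closest to Mid1ip1 (0.75, 0.38), Lman2l (0.75, 0.43) and Mrrf (0.67, 0.83), and Egr1 to Zfp704 (0.69, 0.22), Atxn1 (0.69, 0.62) and Fat1 (0.62, 0.53), and for both genes r and rho were lower than for Fosl1. Maff was closest to 3 predicted genes, Gm7993 (0.88, 0.90), Gm37305 (0.88, 0.86) and Gm17709 (0.85, 0.85).

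Genes that act around AP-1 were counted in 6 lists. Calls against healthy libraries in these lists and in the marker lists stand beside the shares of all genes given above for each comparison. Those shares ran from 4.55% to 11.2% higher and from 1.17% to 12.5% lower. Other immediate early genes (35, all tested) had 8 higher and 1 lower at acute 24 h and 13 higher and 1 lower at chronic 24 h. Their median log2 fold changes were 0.55 and 0.54, beside -0.12 and -0.031 over all genes. Counts were 6 and 1 at acute 72 h, 4 and 4 at acute 7 d, 5 and 1 at chronic 72 h, and 4 and 1 at chronic 14 d. Ptgs2, the inducible cyclooxygenase, stood at 3.09 ± 1.96 CPM in healthy and 142 ± 65.4 CPM in chronic 24 h libraries (log2 fold change 5.51 ± 0.53, adjusted p = 5.70e-08). It was higher in the other 5 injured groups too, among them chronic 14 d (2.89 ± 0.48, adjusted p = 0.000545). Nr4a2, an orphan nuclear receptor, rose in all 6 injured groups, among them acute 24 h (2.14 ± 0.38, adjusted p = 0.000146) and chronic 24 h (4.04 ± 0.39, adjusted p = 6.33e-08). It stood at 2.23 ± 0.37 at acute 7 d (adjusted p = 0.000109) and 2.66 ± 0.37 at chronic 72 h (adjusted p = 2.04e-05). Ccn2, the matricellular growth factor CTGF, stood at 348 ± 203 CPM in healthy and 4521 ± 1161 CPM in acute 24 h libraries (3.70 ± 0.89, adjusted p = 0.00252) and rose at chronic 24 h as well (3.23 ± 0.85, adjusted p = 0.00553). Pim1, a survival kinase, also rose in all 6 injured groups, with 2.25 ± 0.19 at acute 24 h, 1.89 ± 0.18 at acute 72 h and 1.72 ± 0.18 at acute 7 d (adjusted p = 6.56e-07 or below). After the chronic course it stood at 2.21 ± 0.19 at 72 h (adjusted p = 3.39e-08) and 1.10 ± 0.18 at 14 d (adjusted p = 0.000456). Klf2, a flow-responsive Krüppel-like factor, fell at acute 72 h (-1.27 ± 0.30, adjusted p = 0.00326) and acute 7 d (-1.30 ± 0.30, adjusted p = 0.00262), the groups in which Jun fell.

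Genes known as AP-1 targets (20, all tested) held the largest share of calls of the 6 lists. There were 10 higher and 0 lower at acute 24 h, 12 and 1 at acute 72 h, and 10 and 3 at acute 7 d. After the chronic course there were 15 and 1 at chronic 24 h, 10 and 2 at chronic 72 h, and 6 and 1 at chronic 14 d. Its median log2 fold changes in this order were 1.58, 2.13, 2.05, 3.51, 1.74 and 1.28. Mmp9 and Mmp10 had no healthy count. With them at the bound that 3 counts over the healthy group set, or left out where the injured group was at or below 3 counts too, the medians were 1.58, 2.07, 1.66, 3.51, 1.68 and 1.40. The list was drawn up with earlier results of these data known, and its direction is not independent evidence. Timp1, the inhibitor of metalloproteinases, stood at 0.633 ± 0.731 CPM in healthy and 95.5 ± 6.02 CPM in acute 24 h libraries (log2 fold change 7.22 ± 1.10) and at 149 ± 18.5 CPM in chronic 24 h libraries (7.86 ± 1.10), and it rose in every injured group but chronic 14 d. Plaur, the urokinase receptor, rose in all 6 injured groups, with 147 ± 18.9 CPM in acute 24 h, 77.3 ± 19.2 CPM in chronic 24 h and 2.36 ± 1.45 CPM in healthy libraries. Tnc, the matrix glycoprotein tenascin C, rose in all 6 as well, among them by 2.56 ± 0.40 at acute 72 h, 3.74 ± 0.42 at acute 7 d and 6.06 ± 0.46 at chronic 24 h. Plau, the urokinase itself, rose in every injured group but chronic 14 d, with 3.76 ± 0.44 at acute 24 h and 3.81 ± 0.43 at acute 72 h. Ecm1, a secreted matrix protein, fell at acute 72 h (-1.95 ± 0.32), acute 7 d (-2.31 ± 0.32), chronic 24 h (-2.12 ± 0.32) and chronic 72 h (-2.22 ± 0.32). Ecm1 is also one of the stellate cell markers, with means of 9208 CPM in healthy and 2111 CPM in chronic 24 h libraries. Timp1 is also one of the myofibroblast genes, and Spp1, another of the targets, is also one of the cholangiocyte markers. The target list is thus not separate from those marker lists. All of these named targets passed an adjusted p of 0.05 where a rise or fall is stated.

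Partners and competitors with a basic leucine zipper (22) had 4 higher and 3 lower at acute 24 h and at most 2 calls in any other injured group, with medians between -0.15 and 0.10, beside -0.12 to 0.0085 over all genes. At acute 24 h, Atf4, the effector of the integrated stress response, rose by 1.50 ± 0.22 (adjusted p = 1.29e-05). Jdp2, a repressor that pairs with Jun, rose by 1.28 ± 0.24 (adjusted p = 0.000192) and Atf5 by 1.17 ± 0.29 (adjusted p = 0.00282). Bach2, which pairs with small Maf proteins, fell there (-1.84 ± 0.31, adjusted p = 8.80e-05). Mafk, a small Maf protein like Maff, fell at acute 72 h (-1.09 ± 0.20, adjusted p = 0.000374), where Maff rose, and at acute 7 d (adjusted p = 0.000783).

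Of the kinases and serum response factors upstream (20), no more than 3 were called in any group, and the medians ran from -0.25 to 0.10. Srf, the factor that binds the CArG box, rose at acute 24 h (1.21 ± 0.20, adjusted p = 6.37e-05). Its partner Elk4 fell at acute 7 d (-1.06 ± 0.17, adjusted p = 9.45e-05) and chronic 72 h (-1.03 ± 0.17, adjusted p = 0.000167). Feedback phosphatases and inhibitors (15) had 2 higher and 0 lower at acute 24 h, 1 and 1 at acute 72 h, 3 and 2 at chronic 24 h, 2 and 2 at chronic 72 h, and 1 and 1 at chronic 14 d. Those higher at acute 24 h were Dusp4 (2.19 ± 0.31) and Dusp5 (1.24 ± 0.30), phosphatases of the ERK kinases. At acute 7 d, where Fosb and Jun fell, 6 of the list fell, beside 5.64% of all genes. Spred2 (-1.39 ± 0.19), Dusp6 (-1.35 ± 0.23) and Spry4 (-1.23 ± 0.22) had the largest changes among them. The median of the list was -1.03, and 2 of its genes rose, Dusp2 (3.65 ± 0.52) and the Egr1 corepressor Nab2 (1.30 ± 0.18). Nab2 also rose at chronic 24 h (1.73 ± 0.18) and chronic 72 h (1.53 ± 0.18). The highest adjusted p among the feedback genes named with a change was 0.0024, for Dusp5.

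**Figure D5:**
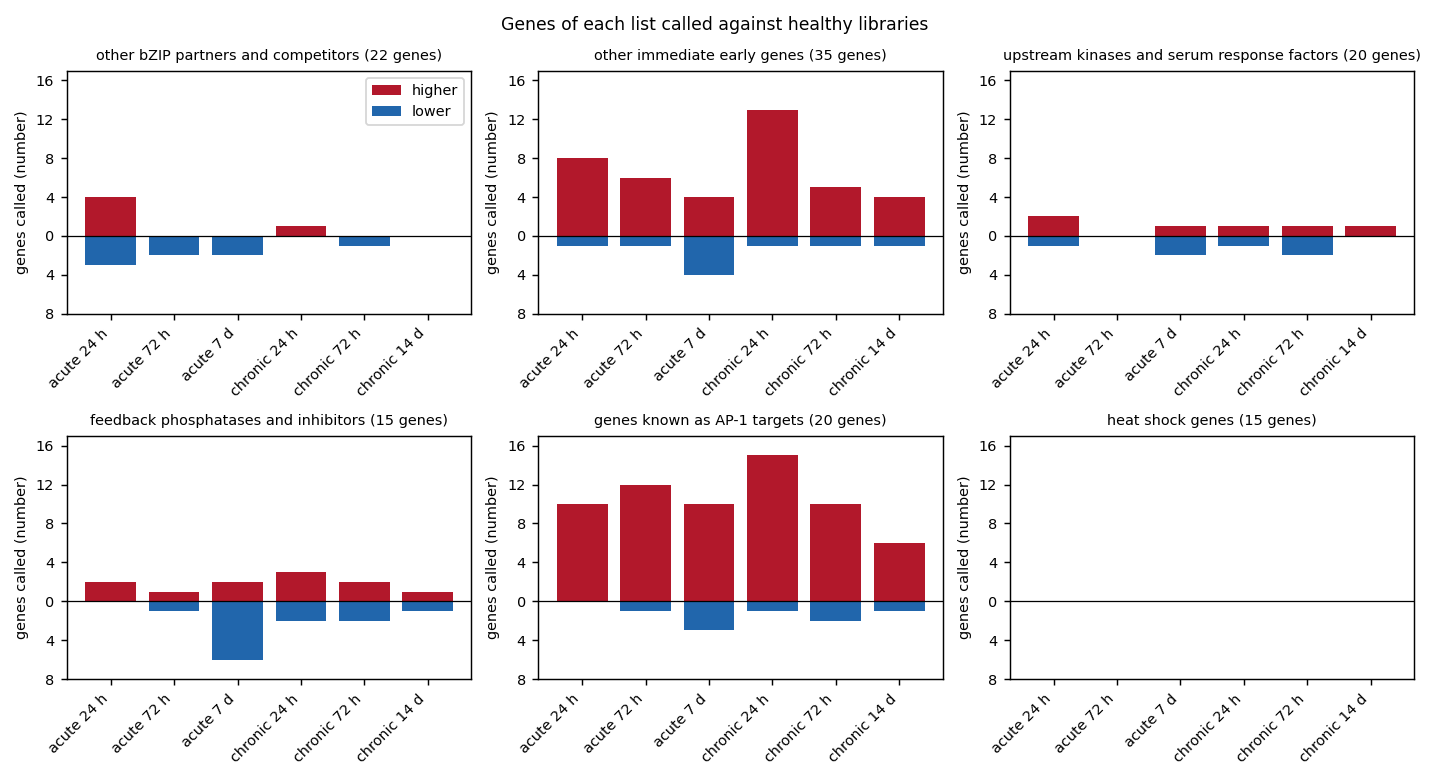
Number of genes called against healthy libraries in each of the 6 lists (vertical axis, genes; red above the line, higher; blue below, lower) for the 6 injured groups (horizontal axis). The list of AP-1 targets reaches 15 higher genes of 20 at chronic 24 h, and the panel of heat shock genes is empty because 0 of 15 were called.

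Heat shock genes (15), which like the members are known to respond to isolation, had 0 calls by edgeR in each of the 6 comparisons with healthy libraries, 0 by DESeq2, and between 0 and 4 at an unadjusted p below 0.05. Between chronic 24 h and chronic 72 h, 2 of them were called, where 3.65% of all genes were lower and 4.72% higher. Between chronic 24 h and chronic 14 d, 3 were called, where 6.11% were lower and 6.65% higher. Fosl1 fell in both comparisons. The summed level of the heat shock genes varied between libraries of one group, beside 6440.5 to 11673 CPM in healthy ones. It ran from 2390.1 to 14151 CPM in acute 7 d and from 4439.9 to 13562 CPM in chronic 14 d libraries. In chronic 24 h it ran from 7451 to 28228 CPM, with replicate 2 highest and 12959 CPM in the next library. Acute 7 d replicates 1 and 2, the lowest in Maff, Fosb and Atf3, had the 2 lowest sums of their group. The part of isolation in the members' values was not tested. Hspa1a and Hspa1b, 2 near-identical copies in this list, are uncertain as single genes.

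Markers of other cells moved with some of these differences. At acute 7 d, where Jun and Fosb fell, the summed level of 10 macrophage markers was 4070.3 to 10655 CPM against 154 to 645 CPM in healthy libraries, with 9 of 10 called higher and Marco without a count in any healthy library. The sum of 10 stellate cell markers was 18285 to 21056 CPM against 29039 to 48469 CPM (5 of 10 lower). Cholangiocyte markers, Spp1 among them, summed to 758 to 4797 CPM against 55.8 to 103 CPM. Neutrophil (28.1 to 48.4 CPM), portal fibroblast and mesothelial (80.0 to 108 CPM) and lymphocyte sums (10.7 to 29.0 CPM) also lay above those of every healthy library. Hepatocyte and sinusoidal endothelial sums overlapped with healthy libraries. Their part in the fall of Jun and Fosb was not tested. At acute 72 h, where Jun fell and Fosl1 and Maff rose, stellate cell markers summed to 15818 to 20241 CPM (5 of 10 lower) and sinusoidal endothelial markers (10) to 53.2 to 159 CPM (7 of 10 lower). Their part in these differences was not tested. At acute 24 h, where Fosl1 and Maff rose, macrophage markers summed to 151 to 216 CPM and hepatocyte markers (10) to 107 to 278 CPM against 461 to 2722 CPM in healthy libraries (8 of 10 lower). Sinusoidal endothelial markers summed to 93 to 123 against 164 to 516 CPM, and neutrophil markers (5) to 3.78 to 18.4 against 0.39 to 2.18 CPM. No count was seen for S100a8 and Retnlg in healthy or for Fabp1 in acute 24 h libraries. The hepatocyte sums of acute 24 h libraries were the lowest of all groups, and the endothelial sums lay below those of every healthy library. At chronic 24 h the stellate cell sum was 15409.7 to 18218 CPM (6 of 10 lower), the macrophage sum 527 to 3644 CPM (7 of 10 higher) and the cholangiocyte sum (5 markers, Spp1 among them) 559 to 1296 against 55.8 to 103 CPM in healthy libraries. The sum of portal fibroblast and mesothelial markers (6) was 69.2 to 135 against 10.9 to 31.7 CPM, and that of lymphocyte markers (6) 7.45 to 15.9 against 1.91 to 7.61 CPM. At chronic 72 h the macrophage sum was 1016 to 2809 CPM (7 of 10 higher). Their part in the members' levels in both chronic groups was not tested. Myofibroblast genes (Acta2, Col1a1, Col3a1, Timp1 and Lox) summed to 2460.2 to 3926 CPM at acute 24 h, where Fosl1 was highest, with 4 of the 5 called higher and a median log2 fold change of 4.03. All 5 were called higher at acute 72 h, with sums of 10443 to 24724 CPM. They summed to 23969 to 39387 CPM at acute 7 d, where Fosl1 overlapped with healthy libraries and all 5 were called higher too, beside 2744 to 3037 CPM in healthy ones.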

How the data were processed

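RNA of 27 HSC preparations collected without culture was sequenced as 75-base single-end reads. The authors used FastQC for read quality, STAR for alignment to GRCm38.p6 and StringTie for assembly, and they deposited raw counts per gene. Tool versions, annotation release, strand setting and the step from StringTie to counts are not given in the sources used here. Genes sharing exons on opposite strands therefore cannot be told apart. Symbols and positions came from GENCODE M21 on the same build (53274 of 53379 identifiers matched). Data from single cells and from culture were not used here.

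Counts of all 27 libraries were fitted in 1 model with the robust quasi-likelihood test of edgeR 4.0.16 in R 4.3.3 (limma 3.58.1), after the default expression filter by group (18758 genes) and TMM scaling. The 12 contrasts were these: 6 against healthy, 5 between injured groups and 1 difference of steps. A call needed a Benjamini-Hochberg adjusted p below 0.05 over all genes tested and more than 2-fold change. CPM are counts scaled to the TMM-adjusted library size, and log2 CPM for correlations used a prior count of 2. At total counts of 6.31 to 13.1 M, healthy libraries held 0 to 29 counts of Fosl1, which limits its precision most. Scripts were tested on simulated counts. Alternatives were DESeq2 1.42.0 and its size factors, library size alone, no filter, a mean of at least 1 CPM, only the groups compared, the replicate number as a block, a term for depth class, libraries above 9 M only, an adjusted p below 0.1, no minimum fold, and each library of a comparison left out. Each member was described, and from the other lists up to 3 genes per direction and comparison with the largest called change and a mean log2 CPM of at least 3 were eligible to be named. Ccdc85b, Mmp9, Mmp10 and markers at 0 were named after their values had been seen. The members and the 6 gene lists and 9 marker lists were chosen with earlier results of these data known. Group means are given ± SD. A few genes that the naming rule also selects are not reported here. Repeats are described as individual experiments, and whether animals were pooled is not given in the sources used here.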

Additional observations from a re-analysis of the deposited data

Results flagged for a closer look

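In groups of 4 libraries, the gap of the highest or lowest value to its neighbour was set against the range of the group (Dixon's test at 95%, on log2 CPM), over 60 combinations of member and group, of which chance alone would mark about 1 in 20. It marked 5, each of them a lowest library. Egr1 stood at 954 CPM in healthy replicate 4, beside 5169 to 6284 CPM in the other 3. Atf3 stood at 524 CPM in healthy replicate 3, beside 809 to 866 CPM, and at 66.1 CPM in chronic 14 d replicate 2, beside 353 to 445 CPM. Fosl2 stood at 65.3 CPM in chronic 72 h replicate 3, beside 156 to 170.4 CPM. Fosl1 had 0 counts in healthy replicate 4, beside 1.94 to 2.83 CPM, a difference of few counts at this depth. The lowest Egr1 and Atf3 values did not fall in the same healthy library.

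The step of Jund from 24 h to 72 h differed between the chronic and the acute course by 1.24 on the log2 scale (adjusted p = 0.0233, edgeR), with Jund falling by 1.03 after the single injection and a difference of 0.21 in the chronic course.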

How the results depend on the processing

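Of 461 recomputed counts of called members, 425 stayed within 1.5 times the reported count and 36 did not. Of the single log2 fold changes and group levels, 2162 kept their direction and their side of the threshold (or moved by less than the SD), 37 lost a call, 9 gained one, and 41 changed sign, each of the latter for a value that was not called. Where no other reason is named, the cause was not tested. Replicate numbers were not seen to pair libraries across groups in the 500 most variable genes. A batch spanning several replicate numbers was not tested. Over 78 pairs with the same number in different groups, deviations from the group means had correlations between -0.18 and 0.18, 9 of them above 0.1. For 234 pairs with different numbers, the range was -0.23 to 0.32, with 20 above 0.1. Inside acute 72 h, the difference (chi-squared per gene) was 35.9 between replicates 1 and 2 and 24.0 between 3 and 4. It was 63.6 to 77.2 for other pairs. Chronic 24 h (35.2, 35.6, 59.8 to 80.5) and chronic 14 d (31.2, 25.7, 32.6 to 61.2) had the same order. In acute 7 d, 3 and 4 (52.8) lay among the others, and in healthy (90.1) and chronic 72 h (75.1) they differed most. Replicates 1 and 2 were nonetheless the closest pair in acute 7 d and in chronic 72 h. In healthy and acute 24 h libraries they were not the closest pair. Whether replicates 1 and 2 of a group share a source of likeness was not tested. The cause was not tested. With the replicate block, the fall of Fosl2 from chronic 24 h to chronic 14 d was -1.29, adjusted p = 0.0749, and no other call of a member changed.

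Without a minimum fold, members lower than healthy numbered 1 at acute 24 h (reported 0), 2 at acute 72 h (1), 5 at acute 7 d (2), 3 at chronic 24 h (0), 1 at chronic 72 h (0) and 1 at chronic 14 d (0), and 3 were lower at chronic than at acute 24 h (1), since smaller changes then count. With only the groups compared, 1 member was higher at acute 72 h (reported 2) and 1 lower at acute 7 d (2). Library size alone left 0 lower at acute 72 h (1). A depth term gave 1 lower at chronic 24 h (0) and 0 at chronic against acute 72 h (1). Libraries above 9 M alone, with fewer libraries, gave 0 higher and 1 lower at chronic 72 h (1 and 0), 0 lower from chronic 24 h to 72 h (1), 0 lower at chronic against acute 72 h (1) and 0 for the difference of steps (1), and they give no value for chronic 14 d. No filter gave 0 lower at chronic against acute 72 h. At chronic 14 d, DESeq2 and an adjusted p below 0.1 each gave 1 lower, Atf3. With single libraries left out, the ranges were 1 to 2 higher and 1 to 2 lower at acute 72 h, 0 to 1 lower at chronic 24 h, 0 to 1 higher at chronic 72 h, 1 to 3 lower from acute 24 h to 72 h, 0 to 1 lower at chronic against acute 72 h, and 0 to 1 higher for the difference of steps.

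The changes of sign were as follows. Junb at acute 24 h was 0.025 without filter, 0.033 with only the groups compared and 0.0094 above 9 M. Library size alone gave 0.00155 for Fos at chronic 72 h, 0.029 for Maff at chronic 14 d and 0.055 for Fos from chronic 24 h to 72 h. For the latter step, libraries above 9 M gave 0.050 for Fos, -0.16 for Jun and 0.014 for Maff. Fosb from acute 24 h to 72 h was -0.042 without filter, -0.027 with only the groups and -0.023 above 9 M. With single libraries left out, values against healthy ran at acute 24 h from -0.12 to 0.13 for Fos, -0.19 to 0.061 for Junb and -0.058 to 0.22 for Jund, at acute 7 d from -0.24 to 0.29 for Egr1 and -0.10 to 0.56 for Maff, at chronic 24 h from -0.21 to 0.023 for Fosb, at chronic 72 h from -0.33 to 0.44 for Fosl1 and -0.36 to 0.035 for Atf3, and at chronic 14 d from -0.69 to 0.096 for Egr1 and -0.32 to 0.040 for Maff. Between injured groups they ran from -0.12 to 0.17 for Fosb (acute 24 h to 72 h), -0.15 to 0.050 for Fos and -0.037 to 0.093 for Jun (chronic 24 h to 72 h), -0.045 to 0.27 for Jund (chronic 24 h to 14 d), -0.19 to 0.061 for Fos, -0.075 to 0.21 for Fosb and -0.044 to 0.56 for Atf3 (chronic against acute 24 h), and -0.23 to 0.16 for Atf3 and -0.018 to 0.13 for Egr1 (chronic against acute 72 h).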
